A study of Mus musculus with 14 samples.

Results

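The cells described here are spiral ganglion neurons of the mouse cochlea at embryonic day 16 (E16) that held at least 1 transcript of Calb2 and none of Lypd1. They were selected on those measured values, one UMI (a counted transcript molecule) of Calb2 being enough, and they number 537 of the 2478 E16 cells and of the 5441 cells in the series. They were set beside 786 E16 cells with neither transcript (called double-negative below) and 1026 cells with Lypd1 and no Calb2 (called Lypd1-only), each time within the same library. The other 129 E16 cells held both transcripts and entered no test. Because Calb2 and Lypd1 made the classes, neither gene was tested, and their levels are given as a description only.

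All animals were CD1 mice with no genotype or treatment contrast. At E16 the ganglion was cut at the middle turn into an apical and a basal portion, each portion was dissociated in trypsin, and 3 replicates from separate litters gave 6 droplet (10x, 3-prime) libraries. Each sample pooled tissue from 5 embryos, so single animals cannot be separated. Other libraries of the series came from E14 (3 libraries, trypsin), E18 (3 libraries, papain) and postnatal day 1 (P1, 2 libraries, papain). The E16 libraries held 235 to 544 cells and 1327692 to 3435044 UMIs, with median depths of 2769 to 9537 UMIs per cell, lowest in base replicate 2. No cell barcode was shared among the 6 E16 libraries.

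Spiral ganglion neurons carry sound information from the hair cells to the brain. Type I neurons contact inner hair cells and, in the mature cochlea, fall into subtypes IA, IB and IC, while the less numerous type II neurons contact outer hair cells. Calb2 encodes calretinin, a calcium-binding protein used as a marker of subtype IA, and Lypd1 encodes a small membrane-anchored protein used as a marker of subtype IC. In the GENCODE M21 annotation of the mm10 (GRCm38) mouse genome, the build of the deposited data, both are protein-coding genes on the minus strand, Calb2 at chr8:110137502-110168210 and Lypd1 at chr1:125867622-125913101. Of the markers followed most closely, Necab1 lies at chr4:14952245-15149794, Kctd12 at chr14:102976581-102982637, Clu at chr14:65968483-65981547 and Pou4f1 at chr14:104461676-104467999.

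Most of the selected cells held few Calb2 molecules. The median was 2 UMIs, the highest 23, and 182 of the 537 cells (33.9%) held exactly 1, which puts them just inside the limit of the selection. The share with a single UMI was 52.9%, 53.3% and 29.2% in apex replicates 1, 2 and 3, and 36.2%, 49.6% and 16.9% in base replicates 1, 2 and 3. As CPM, a gene's UMIs scaled to all UMIs of the cells of one class in a library, Calb2 stood at 350 in apex replicate 1, 350 in apex replicate 2, 513 in apex replicate 3, 321 in base replicate 1, 757 in base replicate 2 and 817 in base replicate 3. Among these selected cells the levels in apex and base overlapped, with the lowest in base replicate 1. Each selected cell holds at least 1 Calb2 UMI, so the lowest possible CPM depends on depth. Selected cells had a median of 9864 UMIs in base replicate 1 and 2917 in base replicate 2. These levels therefore cannot rank the libraries. Over all cells of a library, Calb2 stood at 20.97, 37.85 and 124.8 CPM in apex replicates 1 to 3. In base replicates 1 to 3 it stood at 116.3, 247 and 447.2 CPM.

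The cells made up a larger share of the basal than of the apical libraries. In the apex they were 17 of 328 cells (5.18%), 45 of 544 (8.27%) and 96 of 496 (19.4%) in replicates 1 to 3, and in the base 69 of 235 (29.4%), 133 of 466 (28.5%) and 177 of 409 (43.3%). All 3 basal shares lay above all 3 apical ones, with means of 33.7% ± 8.30 in the base and 10.9% ± 7.48 in the apex (SD, n = 3 each). An exact two-sided permutation test of the difference of 22.8 percentage points gave p = 0.1, the smallest value that 3 libraries against 3 allow. It takes the libraries as independent and leaves aside that apex and base of the same number share a litter, so its p-value does not hold for litters. With every cell thinned to 3000 UMIs and shallower cells left out, the difference was 23.5 points, although only 151 of the 466 cells of base replicate 2 were deep enough to be kept.

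A Calb2 molecule was found more often in Lypd1-negative than in Lypd1-positive cells of the same library. Among Lypd1-negative cells the share with Calb2 ran from 11.0% to 78.7% over the 6 libraries, and among Lypd1-positive cells from 1.73% to 34.2%. The first share exceeded the second in each library, and the 2 classes had similar depths (medians of 2816 to 9769 UMIs for Lypd1-negative and 2664 to 9212 for Lypd1-positive cells). At E14, where cells were about as deep (median 4961 UMIs, against 5884 at E16), 12 of 1637 cells (0.733%) held a Calb2 molecule. At E18 the Calb2-positive, Lypd1-negative class made up 45.4%, 49.2% and 43.2% of the 3 libraries and at P1 32.7% and 36.8% of the 2. Over those ages the double-negative class shrank, from 52.5% to 63.6% of E14 cells to 3.70% to 6.50% at E18 and 1.14% to 2.99% at P1. Age and the dissociation enzyme changed together after E16 and cannot be told apart here.

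**Figure D1:**
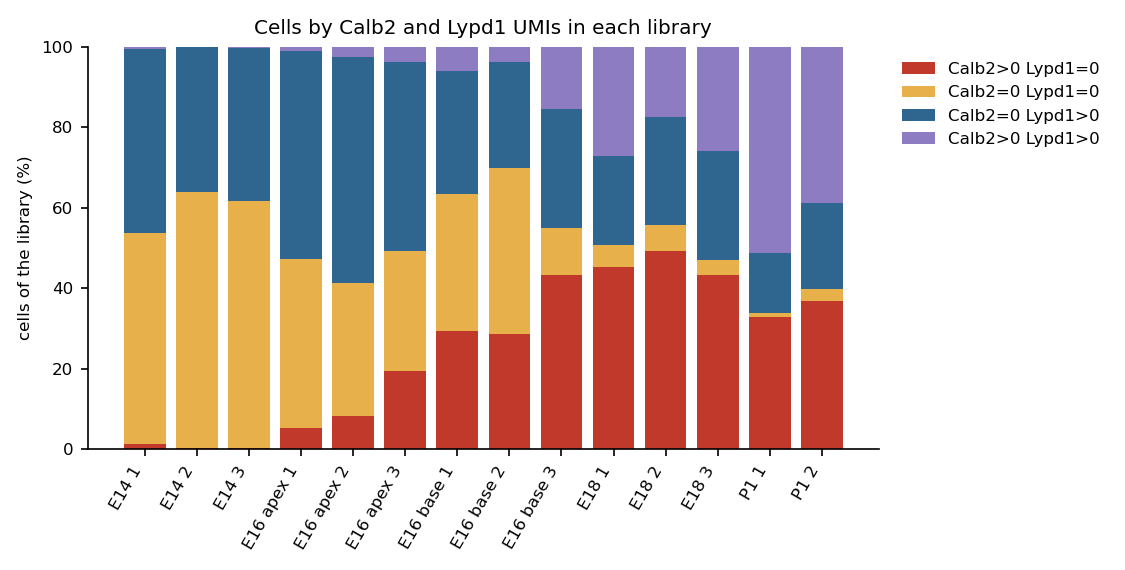
Share of cells (%) in each of the 14 libraries by whether Calb2 and Lypd1 molecules were counted, 1 stacked bar per library. The Calb2-positive, Lypd1-negative share (red) runs from 5.18% to 19.4% in the E16 apex, from 28.5% to 43.3% in the E16 base and is highest, at 49.2%, in E18 replicate 2.

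Comparison with the Lypd1-only cells asked whether the selected cells carry other markers of subtype IA. They did: of 7 genes listed as subtype IA markers, 6 could be tested and 5 were higher in the Calb2-positive, Lypd1-negative cells, while all 3 testable markers of subtypes IB and IC were lower, where 10.4% of all genes tested were called. Necab1, a neuronal calcium-binding protein, ran from 77.7 to 146 CPM (median 93.1) in the selected cells and from 10.9 to 34.4 CPM (median 12.6) in the Lypd1-only cells. The 2 ranges did not overlap, and the fitted log2 difference was 2.65 ± 0.17 (SE, n = 6 libraries, edgeR quasi-likelihood test, adjusted p = 5.55e-14). Kctd12, an auxiliary subunit of GABA-B receptors, ran from 231 to 315 CPM against 37.9 to 63.0 CPM, again without overlap, a log2 difference of 2.31 ± 0.10 (adjusted p = 1.99e-18). Clu, the secreted chaperone clusterin, ran from 559 to 873 CPM against 152 to 328 CPM and differed by 1.78 ± 0.08 on the log2 scale (adjusted p = 1.79e-18). Rxrg, a retinoid X receptor, was higher by 1.66 ± 0.15 and Mdga1, a membrane protein that restrains synaptic adhesion, by 0.42 ± 0.07 (log2, adjusted p = 2.42e-10 and 1.93e-05). B3gat1 did not pass the test, at a log2 difference of 0.60 (95% interval 0.11 to 1.09, adjusted p = 0.12).

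Among the markers of subtypes IB and IC, Pou4f1, a POU-domain transcription factor, ran from 0 to 22.7 CPM (median 5.28) in the selected cells and from 126 to 244 CPM (median 210) in the Lypd1-only cells. Its log2 difference of -5.09 ± 0.22 (adjusted p = 1.92e-18) was the largest among the named genes of this comparison. Runx1, a transcription factor of type I subtype specification, ran from 79.1 to 104 CPM against 203 to 468 CPM, and Calb1, the calcium buffer calbindin, from 8.78 to 44.9 CPM against 58.4 to 143 CPM. Both fell by about the same amount (log2 differences of -1.996 ± 0.10 and -1.98 ± 0.18), and neither range overlapped. Per cell, 18 of the 537 selected cells (3.35%) held a Pou4f1 molecule, against 621 of 1026 Lypd1-only cells (60.5%), at median depths of 6595 and 5638 UMIs. By library the Pou4f1 shares ran from 0 to 8.89% and from 42.3% to 70.2%. In 435 selected cells (81.0%) Necab1 or Kctd12 was found, against 219 Lypd1-only cells (21.3%). After thinning to 3000 UMIs those shares were 61.7% and 14.7% for Necab1 or Kctd12, and 1.30% and 42.8% for Pou4f1.

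The selected cells were also higher than the Lypd1-only cells in genes listed as type II markers. Of 9 such genes 6 were tested, 4 rose and 1 fell. Prph, the intermediate filament protein peripherin, ran from 192 to 491 CPM against 41.4 to 83.8 CPM, a log2 difference of 2.58 ± 0.13 (adjusted p = 4.89e-17). Tle4, a transcriptional co-repressor, was higher by 1.30 ± 0.07 and Ngfr, the low-affinity neurotrophin receptor, by 0.70 ± 0.11 (log2). Etv4, an ETS transcription factor, fell by 0.94 (SE 0.27, adjusted p = 0.0189), and Gata3, a zinc-finger factor, did not pass the test (0.10, 95% interval -0.11 to 0.31).

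Over all genes this comparison called 835 of 8032 at an adjusted p below 0.05, 388 higher and 447 lower in the selected cells, and DESeq2 called 464, all among the 835. Among the listed gene groups, transcription factors gave 13 higher and 14 lower of 35 tested, calcium-binding proteins 4 higher and 8 lower of 19, cytoskeletal genes 5 higher and 8 lower of 24, and glycolytic genes 0 of 15. Beside the markers, Gfra2, a receptor for neurturin, had a log2 difference of 2.00 ± 0.27, Gabra2, a GABA-A receptor subunit, of 1.87 ± 0.16, and Hs3st1, a heparan sulfate sulfotransferase, of 2.13 ± 0.21. On the lower side stood Cdk14, a cyclin-dependent kinase (-2.94 ± 0.10), Ntng1, the adhesion protein netrin-G1 (-2.63 ± 0.14), Sema3a, a repulsive guidance ligand (-2.99 ± 0.22), and Slc17a6, the vesicular glutamate transporter VGLUT2 (-2.75 ± 0.22). The selected cells were slightly deeper than the Lypd1-only cells in 6 of 6 libraries, by 0.16 ± 0.10 (SD) in the log2 of median UMIs (exact two-sided sign-flip permutation test over 6 libraries, p = 0.0313, the smallest it can give). That test takes the 6 libraries as independent, although they come from 3 litters, so its p-value does not hold for litters. With cells of at least 5000 UMIs only, 640 genes were called, of which 588 were among the 835.

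Against the double-negative cells, 5 of the 7 subtype IA markers did not pass the test and 2 rose, Mdga1 by 0.32 and Clu by 0.23 on the log2 scale, where 1.13% of all genes tested were called. In the class with neither transcript the medians of Necab1, Kctd12, Clu and Rxrg (86.7, 204, 577 and 84.99 CPM) were closer to those of the selected cells (93.1, 258, 732 and 97.0 CPM) than to those of the Lypd1-only cells (12.6, 52.2, 186 and 31.3 CPM). Necab1 ran from 50.9 to 171 CPM (median 86.7) in double-negative cells, a range that contains all 6 values of the selected cells. The log2 difference was 0.11 ± 0.12 (95% interval -0.14 to 0.35, adjusted p = 0.904). Kctd12 ran from 166 to 302 CPM (median 204) against 231 to 315 CPM (median 258). Its log2 difference of 0.25 ± 0.08 (95% interval 0.09 to 0.41) did not pass in edgeR (adjusted p = 0.132). For Rxrg the difference was 0.11 (95% interval -0.14 to 0.35), for B3gat1 0.25 (-0.24 to 0.74) and for Pcdh20 -0.03 (-0.51 to 0.46). The intervals of Necab1, Rxrg, B3gat1 and Pcdh20 hold changes in either direction.

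The markers that rose were Mdga1 and Clu. Mdga1 ran from 569 to 671 CPM (median 610) in the selected cells and from 451 to 527 CPM (median 477) in double-negative cells, higher in 6 of 6 libraries, and the ranges did not overlap. Its log2 difference was 0.32 ± 0.06 (adjusted p = 8.31e-05). Clu ran from 559 to 873 CPM (median 732) against 432 to 878 CPM (median 577), higher in 5 of 6 libraries, base replicate 1 being the exception. Its log2 difference was 0.23 ± 0.06 (adjusted p = 0.00909). The call for Clu held in 8 of 19 other settings and that for Mdga1 in 17 of 19. Without apex replicate 2 or 3 the Clu difference was 0.18 or 0.21 (adjusted p = 0.173 and 0.0744), and it also did not pass with DESeq2, with cells of at least 5000 UMIs, with thinned or depth-matched cells, with Calb2 of at least 2 UMIs, with no library term or without cells holding an Etv4 or Pou4f1 molecule.

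**Figure D2:**
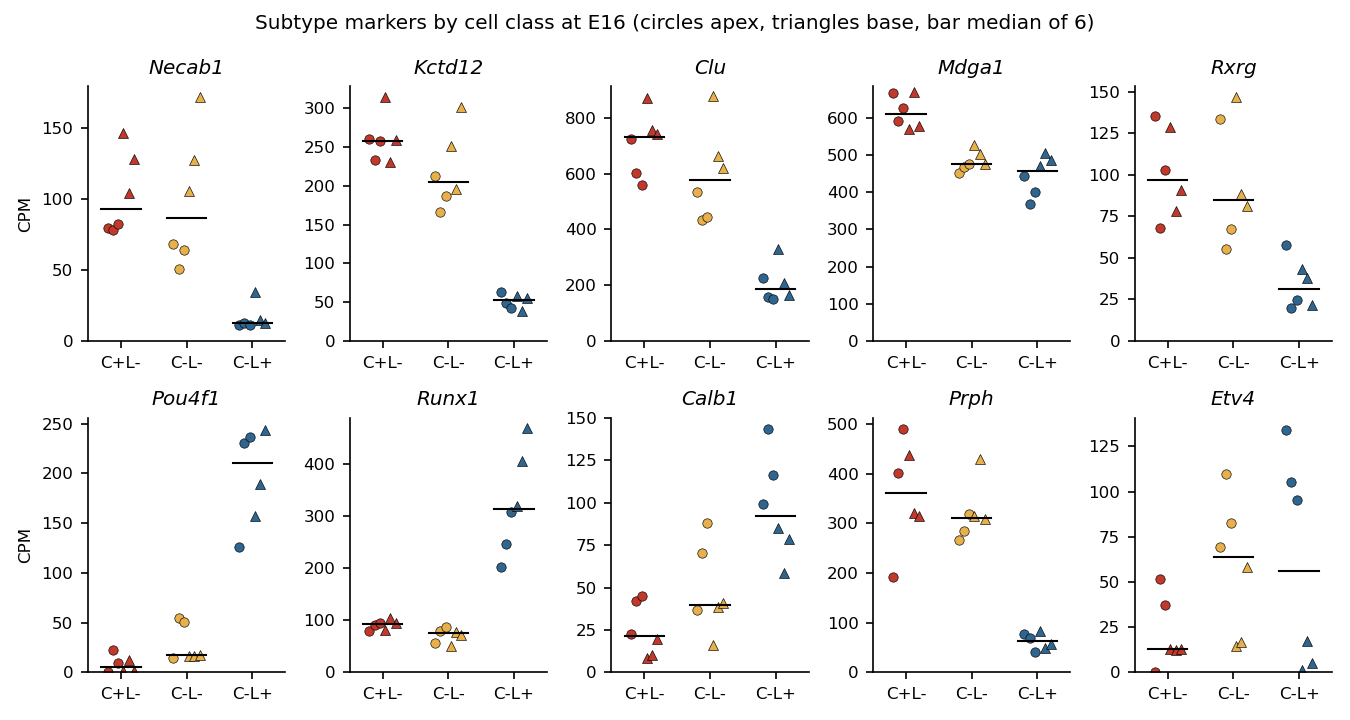
CPM of 5 subtype IA markers (top row) and of subtype IB/IC and type II markers (bottom row) in Calb2-positive Lypd1-negative (C+L-), double-negative (C-L-) and Lypd1-only (C-L+) cells, 1 point per E16 library and a bar at the median of 6. For Necab1 the C+L- and C-L- points overlap (medians 93.1 and 86.7) and the C-L+ points lie lower (median 12.6), while for Pou4f1 the order is reversed (medians 5.28, 17.0 and 210).

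Across the whole table the 2 Lypd1-negative classes differed in few genes. At an adjusted p below 0.05, 91 of 8078 genes tested were called, 41 higher in the selected cells and 50 lower, and 675 had an unadjusted p below 0.05. The term for the library carries this comparison: with no library term 0 genes were called by edgeR (360 at an unadjusted p below 0.05), and with apex and base of each litter summed and the litter as the replicate block 258 were called, 84 of them among the 91. DESeq2 called 25 of the 91 and no others. Leaving out apex replicate 3 left 50 calls, leaving out base replicate 3 left 57, and leaving out both left 17. The classes were of nearly equal depth, with a log2 difference in median UMIs of 0.05 ± 0.07 (SD), positive in 5 of 6 libraries (exact two-sided sign-flip permutation test, p = 0.125). Here too the test takes the 6 libraries as independent. After matching the cells of the classes for depth, 47 genes were called, 46 of them among the 91. In simulated counts with the same libraries, only genes with a mean of at least 20 CPM were changed. The test recovered 89.8% of those changed by 1 on the log2 scale and 54% of those changed by 0.5. Of 149 calls 7 were false. Genes at lower levels were not covered, and counts were drawn independently for each library.

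The 15 named genes with the largest rises ran from 0.38 to 1.02 on the log2 scale. Cntn5, the neuronal adhesion protein contactin 5 (chr9:9660891-10904775, minus strand), ran from 286 to 1520 CPM (median 925) in the selected cells and from 151 to 1254 CPM (median 630) in double-negative cells. The ranges overlapped, but within a library the selected cells were higher in 6 of 6 libraries, by 0.49 ± 0.06 on the log2 scale (adjusted p = 3.53e-10). Ppp1r14c, an inhibitor of protein phosphatase 1, rose by 0.47 ± 0.06 (adjusted p = 2.3e-08). Fgf12, an intracellular partner of sodium channels, ran from 181 to 226 CPM against 130 to 168 CPM with no overlap, a difference of 0.48 ± 0.09 (adjusted p = 0.000175). Cacna1d, the pore-forming subunit of the L-type calcium channel Cav1.3, rose from a median of 37.3 to 54.8 CPM (0.68 ± 0.17), and Unc5d, a netrin receptor, from 108 to 148 CPM (0.42 ± 0.10). Lrrk1, a kinase, Sncb, beta-synuclein, and Arpp21, a cAMP-regulated phosphoprotein, rose by 0.38, 0.40 and 0.51. The largest estimate was that of Dytn, the low-level gene dystrotelin, at 1.02 ± 0.26 on medians of 22.7 and 14.9 CPM. The others were Atg4b, an autophagy protease (0.70), Tm6sf1 (0.67), Vstm2l (0.60), Galt, an enzyme of galactose metabolism (0.46), Rbm17, a splicing factor (0.40), and Mb21d2 (0.38). When 1 library was left out at a time, 5 of the 15 rises passed each time they were tested (Cntn5, Ppp1r14c, Fgf12, Arpp21 and Tm6sf1) and 10 did not. Lrrk1 did not pass without base replicate 3 (adjusted p = 0.0761). Cacna1d, Unc5d and Atg4b did not pass without apex replicate 3, base replicate 1 or base replicate 3, with adjusted p up to 0.272, 0.107 and 0.289. Dytn was lost without apex replicate 3, base replicate 2 or base replicate 3, Rbm17 without apex replicate 2, apex replicate 3 or base replicate 2, and Vstm2l without any 1 of those 4 libraries (adjusted p up to 0.261, 0.214 and 0.182). Galt and Mb21d2 each passed in 1 of the 6 refits, the one without base replicate 1, and Sncb in 0 of 6. Over all 19 other settings, Cntn5 and Ppp1r14c held in 18, Fgf12 in 17, Tm6sf1 in 15 and Arpp21 in 14. Among other losses, Arpp21 did not pass with DESeq2, with cells of at least 5000 UMIs or with thinned cells. Tm6sf1 did not pass with thinned cells or without both libraries of replicate 3.

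The 15 named genes with the largest falls included the listed markers Pou4f1, Calb1 and Etv4. Pou4f1 ran from 0 to 22.7 CPM (median 5.28) in the selected cells and from 14.98 to 54.5 CPM (median 17.0) in double-negative cells, lower in 6 of 6 libraries, with a log2 difference of -1.99 ± 0.32 (adjusted p = 5e-06). The 0 is that of apex replicate 1, where 3 UMIs of the selected cells would be 33.9 CPM. Etv4 ran from 0 to 51.8 CPM (median 13.0) against 14.9 to 110 CPM (median 63.8), again lower in 6 of 6 libraries, and fell by 1.25 (SE 0.20, adjusted p = 7.28e-06). Calb1 ran from 8.78 to 44.9 CPM against 16.2 to 87.8 CPM, with a log2 difference of -0.998 ± 0.20 (adjusted p = 0.000449). The call for Calb1 held in 12 of 18 other settings. It did not pass with DESeq2, with cells of at least 5000 UMIs, with depth-matched cells or with no library term. Nor did it pass without both libraries of replicate 3 or without cells holding an Etv4 or Pou4f1 molecule. Of the 3 IB/IC markers tested, Pou4f1 and Calb1 thus fell, while Runx1 did not pass (0.33, 95% interval 0.08 to 0.59, adjusted p = 0.315). Of the 7 type II markers tested, Etv4 and Gata3 fell (Gata3 by 0.37, SE 0.06), none rose, and Prph did not pass (0.26, 95% interval 0.11 to 0.41, adjusted p = 0.0787).

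Slc17a6, for VGLUT2, fell by 0.95 (SE 0.25) and Igfbp2, a secreted binding protein of insulin-like growth factors, by 1.48 (SE 0.20). Fstl5, a secreted follistatin-like protein, ran from 7.60 to 25.9 CPM against 29.97 to 49.4 CPM without overlap and fell by 1.24 (SE 0.25). F2r, the thrombin receptor PAR1, fell by 0.89 (SE 0.13), Tgfb2, a transforming growth factor ligand, by 0.68 (SE 0.10), and the immediate early gene Fos by 0.60 (SE 0.11). Rprm, a mediator of cell cycle arrest, fell by 0.72 (SE 0.11), Tacc2, a centrosomal protein, by 1.14 (SE 0.21), and Crtac1, a secreted cartilage acidic protein, by 0.90 (SE 0.22). Slc31a2, a copper transporter, Prkg1, a cGMP-dependent kinase, and Kdm7a, a histone demethylase, gave log2 differences of -1.28, -0.75 and -0.70. When 1 library was left out at a time, 10 of the 15 falls passed each time they were tested. Crtac1 did not pass without base replicate 3 (adjusted p = 0.148), Slc31a2 without that library or apex replicate 3 (up to 0.178), and Slc17a6 without either of these or base replicate 1 (up to 0.23). Prkg1 passed in 2 of the 6 refits, those without apex replicates 1 or 2, and Kdm7a in 1 of 6, that without apex replicate 1. Over all other settings F2r held in 17 of 19, Rprm, Tgfb2 and Fos in 16 of 19, and Etv4 in 15 of 17. Pou4f1 held in 12 of 13, Tacc2 in 15 of 18, Igfbp2 and Fstl5 in 14 of 18 and Calb1 in 12 of 18. Among other losses, Igfbp2 did not pass with cells of at least 5000 UMIs or depth-matched cells, and Fstl5 with DESeq2.

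**Figure D3:**
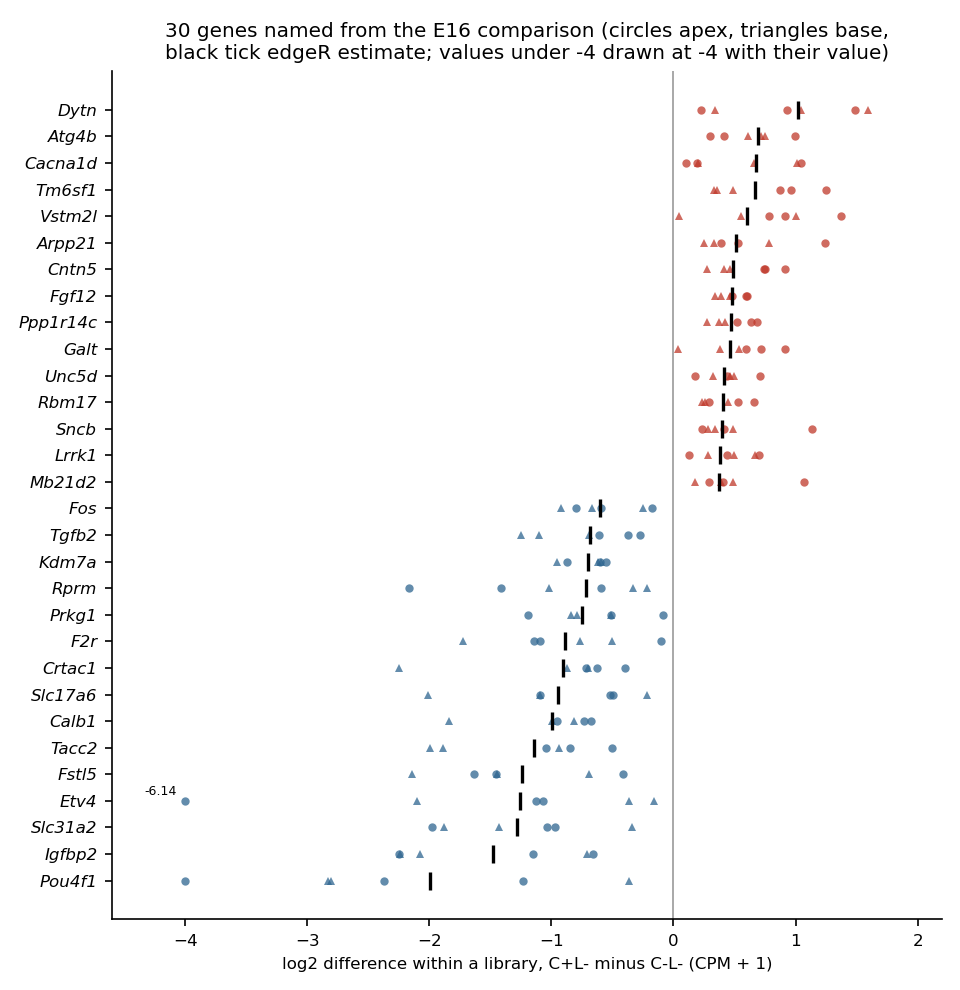
Within-library log2 differences (CPM + 1) between Calb2-positive Lypd1-negative and double-negative cells for the 30 named genes, 1 point per E16 library and a tick at the edgeR estimate. Each gene has its 6 points on 1 side of 0, which the naming rule required, and the estimates run from -1.99 (Pou4f1) to 1.02 (Dytn).

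Cells with a Pou4f1 molecule were more frequent among double-negative than among selected cells in 6 of 6 libraries, and cells with an Etv4 molecule in 5 of 6. In apex replicates 1, 2 and 3 Etv4 was found in 23.9%, 43.0% and 37.8% of double-negative cells and in 0 of 17, 20.0% and 20.8% of selected cells. The 0 of 17 allows a share of up to 17.6%. In base replicates 1, 2 and 3 the shares were 12.5%, 3.11% and 22.9% against 10.1%, 3.76% and 6.78%, so the classes were close in base replicates 1 and 2. All 3 apical shares of the double-negative cells lay above all 3 basal ones, so the shares are given by library and not pooled. Pou4f1 was found in 4.15% to 22.9% of double-negative cells (median 11.9%) and in 0 to 8.89% of selected cells (median 2.60%). The Pou4f1 shares were close in base replicate 2 (4.15% against 3.76%). In apex replicate 1 they were 6.52% against 0 of 17, which again allows up to 17.6%. With all cells holding either transcript left out, an alternative chosen after seeing the data, 32 genes were called, of which 29 were among the 91. Of the 91 genes 81 could then be tested, and 81 of those 81 had the same sign as before. These genes were picked in the same libraries with most of the same cells, so the agreement in sign is no independent check.

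By function, each listed group had at most 4 members called, where 1.13% of all genes were. Of the neurofilament genes Nefm ran from 1943 to 5139 CPM (median 2713) against 2159 to 5840 CPM (median 4094) and fell by 0.35 (SE 0.04, adjusted p = 3.53e-10), and Nefl fell by 0.26 (SE 0.04). They share exonic bases on opposite strands. Of 24 cytoskeletal genes tested 1 rose (Sncb) and 2 fell (Nefm and Nefl), with a list median of -0.01 against 0.00 for all genes tested. Of 31 neuronal transcription factors tested 4 fell and none rose, the 4 being Pou4f1, Etv4, Gata3 and Ebf1, a helix-loop-helix factor of neuronal differentiation (-0.45 ± 0.06). Sox11, a factor of immature neurons, was the 1 gene called of 8 tested from the neuroblast list and fell by 0.33 (SE 0.05). In axon guidance, Unc5d rose, and Efna5, the ligand ephrin-A5, and Sema3a fell (log2 differences of -1.41 ± 0.22 and -1.36 ± 0.28), of 25 tested. Efna5 was lower in 5 of 6 libraries. In double-negative cells it stood at 136.5 CPM in base replicate 3 and at 27.2 to 45.9 CPM in the other 5 libraries, against 11.3 to 35.6 CPM in the selected cells. Without base replicate 3 its difference was -0.83 (adjusted p = 0.112), and DESeq2 did not call it (adjusted p = 0.102). Sema3a did not pass without apex replicate 3 (-1.19, adjusted p = 0.0602).

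In the remaining groups, Syt7, a calcium sensor of vesicle release, rose by 0.34 ± 0.09 and Slc17a6 fell, of 29 synaptic vesicle genes. Among 15 adhesion genes Cntn5 rose and Ncam2 fell (-0.68 ± 0.16), among 19 calcium-binding genes Calb1 and Hpcal1 fell (Hpcal1 -0.30 ± 0.08), and among 10 glutamate receptor genes Grin3a, an NMDA receptor subunit, fell (-0.92 ± 0.25). Each of these calls but that of Calb1 and Cntn5 was lost without at least 1 library: Syt7 without apex replicates 2 or 3 or base replicates 2 or 3, Ncam2 without base replicates 1 or 3, Hpcal1 without apex or base replicate 3, and Grin3a without apex replicate 3 or base replicates 1 or 3 (adjusted p up to 0.294, 0.158, 0.299 and 0.316). Aldh1a3, an enzyme of retinoic acid synthesis, ran from 334 to 486 CPM against 272 to 421 CPM and rose by 0.35 ± 0.07, 1 of 7 retinoid and thyroid genes. None of 16 potassium channel, 14 glycolytic, 7 neurotrophin or 4 GABA-B and Kctd genes was called. Of 13 immediate early and stress genes Fos fell, and 11 of the 13 had a negative estimate (list median -0.24, against 0.00 for all genes tested). Estimates were positive for 2 of the 10 glutamate receptor genes (median -0.13), for 11 of the 14 glycolytic genes (median 0.06) and for 4 of 14 genes of the BMP, Notch and FGF pathways (median -0.12), against 4051 of all 8078 genes.

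The neurons were checked against markers of other cells in the dissected tissue. The 13 markers of spiral ganglion neurons summed to 11670 to 16660 CPM in the selected and 12020 to 17580 CPM in the double-negative cells. Glial markers (10 genes) summed to 45.2 to 142 CPM and 68.8 to 129 CPM, mesenchymal markers (10 genes) to 45.2 to 177 CPM and 40.9 to 137 CPM, and supporting cell markers (11 genes) to 14.6 to 45.2 CPM and 16.2 to 45.5 CPM. Hair cell markers (11 genes) summed to 239.6 to 381 CPM and 261 to 357 CPM, with Pou4f3, Gfi1 and Lhx3 at 0 UMIs in the selected cells. All 5 melanocyte genes were at 0 UMIs in the selected cells. Haemoglobin and other genes of red blood cells (6 genes) summed to 37.4 to 407 CPM and 31.9 to 459 CPM. The ranges of these sums overlapped between the classes for each list, and their part in the results above was not tested.

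The selected cells were split at the limit of the rule, here without a test. With 1 Calb2 UMI the median over libraries was 94.4 CPM for Necab1, 271 CPM for Kctd12, 685 CPM for Clu and 599 CPM for Mdga1, and with 2 or more it was 119, 264, 707 and 617 CPM. Just outside the limit, at 0 Calb2 UMIs, the medians were 86.7, 204, 577 and 477 CPM. Necab1 did not follow the order of its medians in each library. At 0, 1 and 2 or more UMIs apex replicate 1 held 68.1, 21.15 and 146 CPM of Necab1. Apex replicate 2 held 50.9, 43.6 and 114.5 CPM, and apex replicate 3 held 64.1, 77.15 and 84.4 CPM. Base replicate 1 held 105, 177 and 130 CPM. Necab1 fell at each step in base replicate 2 (127.5, 112 and 96.15 CPM) and base replicate 3 (171, 153 and 124 CPM). Cntn5 had medians of 630, 677 and 1031 CPM at 0, 1 and 2 or more UMIs, and Igfbp2 of 64, 23.4 and 14.1 CPM. Both kept the order of their medians in each library but base replicate 3 (897, 867 and 1310 CPM for Cntn5, 43.55, 0 and 11.3 CPM for Igfbp2). For Pou4f1 the medians were 17.0, 7.62 and 5.34 CPM. All selected cells together held 21 Pou4f1 UMIs, so its values there are near the floor. Pou4f1 was higher again at the last step in base replicate 1 (16.2, 0 and 2.25 CPM) and base replicate 2 (16.6, 10.1 and 15.2 CPM).

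Within the selected cells, base and apex differed in a few genes. Of 7568 genes tested 20 (0.264%) were called, 14 higher in the base and 6 lower, and 403 had an unadjusted p below 0.05. With the litter as a replicate block, since the apex and base of one number came from the same litter, 107 were called and these included the 20, while DESeq2 called 12 and edgeR without a filter on low counts 54. Cntn5 stood at 610, 369 and 286 CPM in apex replicates 1 to 3 and at 1502, 1520 and 1241 CPM in base replicates 1 to 3, a log2 difference of 1.88 ± 0.21 (n = 3 against 3, edgeR quasi-likelihood test, adjusted p = 0.000129). No apical value reached a basal one, and the call held in all 9 other settings. The other classes showed the same order: double-negative cells held 364, 219 and 151 CPM in the apex and 1129, 1254 and 897 CPM in the base, and Lypd1-only cells 193, 143 and 117 CPM and 1054, 831.5 and 796.5 CPM. The class by portion interaction for Cntn5 was -0.43 ± 0.12 and did not pass (adjusted p = 0.294). Pvalb, the calcium buffer parvalbumin, stood at 633, 489 and 257 CPM in the apex and at 1028, 1264 and 1101 CPM in the base (log2 difference 1.42 ± 0.23). Lsamp, a limbic-system adhesion protein, was at 158, 110 and 100 CPM in the apex and 332, 271 and 336 CPM in the base (1.51 ± 0.20). Lower in the base were Tgfb2 (136, 249 and 209 against 79.1, 63.3 and 90.0 CPM), Crtac1 (33.9, 45.3 and 40.4 against 8.78, 12.7 and 7.17 CPM) and Nefm (2848, 3934 and 5139 against 1943, 2138 and 2578 CPM). In double-negative cells Tgfb2 stood at 176, 302 and 319 CPM in the apex and 128, 151.5 and 194.5 CPM in the base. Crtac1 stood there at 44.9, 75 and 63.0 CPM against 14.85, 24.0 and 37.7 CPM. Nefm stood at 4188, 5011 and 5840 CPM against 2159, 2662 and 4001 CPM. For Pvalb the values were 774, 774 and 380 CPM against 837, 1157 and 430 CPM. Base against apex was not tested in double-negative cells.

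S100b, a calcium-binding protein also on the glial marker list, stood at 0, 0 and 2.99 CPM in the apex and at 35.1, 55.7 and 35.0 CPM in the base (adjusted p = 0.00269). Dcn, the proteoglycan decorin and a mesenchymal marker, was at 33.9, 9.71 and 19.4 CPM in the apex and 77.6, 127 and 78.0 CPM in the base (log2 difference 2.34 ± 0.35). The summed glial markers were 45.2 to 64.3 CPM in the apex and 109 to 142 CPM in the base, and the mesenchymal ones 45.2 to 77.8 CPM and 116 to 177 CPM. In the Lypd1-only cells of the same libraries S100b stood at 1.05 to 4.13 CPM in the apex and 90.4 to 121 CPM in the base. In double-negative cells it stood at 0 to 4.09 CPM and 14.5 to 44.3 CPM. Dcn stood at 12.3 to 22.7 CPM in the apex and 49.96 to 79.4 CPM in the base in double-negative cells. For Lypd1-only cells the Dcn values were 9.30 to 11.6 CPM and 30.3 to 64.2 CPM. The order of base over apex was thus not particular to the selected cells. The part of glial or mesenchymal RNA in these differences was not tested.

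Further named genes higher in the base were Gabra2, Rbfox3, the splicing factor NeuN, Cda, a cytidine deaminase, and Dytn, at log2 differences of 1.32, 1.87, 1.38 and 1.98. Kcnip4, a potassium channel partner, Mtmr6, a lipid phosphatase, and Ntm, the adhesion protein neurotrimin, were lower by -1.40, -1.11 and -0.85. None of the 7 subtype IA, 2 IB/IC or 5 type II markers tested was called between base and apex, where 0.264% of all genes tested were. At so low a share, 0 calls in lists this short cannot show that the markers are alike in base and apex. Estimates were positive for 6, 1 and 2 of these markers, against 3742 of all 7568 genes. Leaving out apex replicate 2 left 2 calls and leaving out apex replicate 3 left 1, that of Cntn5, while leaving out base replicates 1, 2 or 3 left 13, 9 and 12. Leaving out apex replicate 1, with 17 selected cells, left 15.

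**Figure D4:**
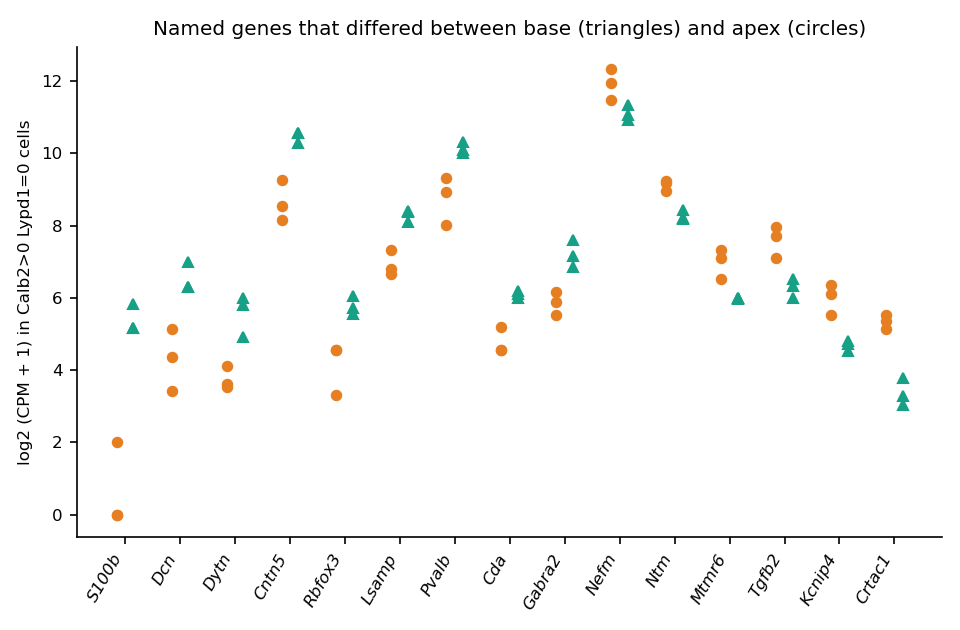
Level, as log2 (CPM + 1), of 15 genes named from the base against apex comparison in Calb2-positive Lypd1-negative cells, 1 point per library. The 3 basal points lie on 1 side of the 3 apical points for each gene, as the naming rule required, and the log2 differences run from 4.28 (S100b) to -2.21 (Crtac1).

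The difference between selected and double-negative cells itself differed between base and apex for 5 of 8078 genes (0.0619%, class by portion interaction, edgeR). For Pvalb the within-library log2 differences were -0.66 to -0.29 in the 3 apical libraries and 0.13 to 1.36 in the 3 basal ones, an interaction of 1.06 ± 0.12 (adjusted p = 1.78e-11). For Vim, the intermediate filament vimentin, they were -1.28 to -0.40 in the apex and -0.35 to 0.08 in the base (interaction 0.81 ± 0.14). Snhg11, a small nucleolar RNA host gene, was higher in the selected cells by 0.46 to 0.55 in the apex and by 0.11 to 0.16 in the base. Lgals1, the lectin galectin-1, had an interaction of -0.60 ± 0.09. DESeq2 called 0 of the 5 (63 genes at an unadjusted p below 0.05), leaving out base replicate 1 left 1 call, and leaving out apex replicate 3 left 2.

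The same rule at E18 gave cells of other animals for the comparison with double-negative cells, from tissue dissociated in papain and not in trypsin. E18 replicates 1 and 2 had at least 10 cells of each class, 330 Calb2-positive and 41 double-negative in all, and no P1 library did. Double-negative cells were 5.31% and 6.50% of these 2 libraries, against 11.7% to 42.1% of the E16 libraries. Whether that class held the same kinds of cells at both ages was not tested. At E18, 133 of 6485 genes tested (2.05%) were called, 62 higher and 71 lower, and DESeq2 called 20. With only 2 libraries, the edgeR p-values at E18 rest mostly on variance shared across genes and hardly on the spread between libraries. Taking all 5 libraries of E18 and P1 with at least 3 cells of each class, a choice made after seeing the data, 244 genes were called. Of the 91 genes called at E16, 81 were tested at E18, where 38 of the 39 that had risen and 41 of the 42 that had fallen kept their sign. Of these, 45 were called at E18 in the direction seen at E16 and 0 in the opposite direction.

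Cntn5 stood at 1012 and 284 CPM in the Calb2-positive cells of E18 replicates 1 and 2 and at 334 and 60.5 CPM in the double-negative cells, a log2 difference of 1.72 ± 0.20 (adjusted p = 3.3e-15). Etv4 stood at 21.1 and 14.2 CPM against 134 and 151 CPM (-2.87 ± 0.40, adjusted p = 6.16e-10). Both genes therefore differed in the same direction in both E18 libraries. F2r (-2.54 ± 0.28), Slc17a6 (-3.16 ± 0.53), Fstl5 (-2.68 ± 0.52) and Crtac1 (-2.31 ± 0.45) were also called lower, and Tm6sf1 (2.45 ± 0.44), Lrrk1 (1.34 ± 0.22) and Ppp1r14c (1.26 ± 0.19) higher. DESeq2 did not call Fstl5, Crtac1, Tm6sf1 or Lrrk1 at E18 (adjusted p = 0.156, 0.427, 0.22 and 0.161). Cacna1d had 75 and 59 UMIs in the Calb2-positive cells and 0 UMIs among 164855 and 99162 UMIs of the double-negative cells, where 3 UMIs would be 18.2 and 30.2 CPM.

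Rbm17 went against its E16 sign (-0.13 ± 0.28) and did not pass at E18, and neither did Igfbp2 (-1.19 ± 0.69), Fgf12 (0.50 ± 0.24) or Atg4b (0.52 ± 0.51). Among the subtype IA markers none of 6 tested was called at E18. Necab1 stood at 86.5 and 67.0 CPM against 158 and 60.5 CPM (log2 difference -0.56, 95% interval -1.18 to 0.07), and Clu at 802 and 1066 CPM against 734 and 1019 CPM (0.15, -0.12 to 0.42). Of 8 type II markers tested, Etv4, Gata3 (266 and 290 against 601 and 686 CPM) and Ngfr (135 and 40.0 against 212 and 151 CPM) were lower in the Calb2-positive cells and none was higher. Pvalb, whose difference at E16 depended on the portion, was higher at E18 by 0.95 ± 0.14 (1762 and 1294 against 692 and 1019 CPM).

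**Figure D5:**
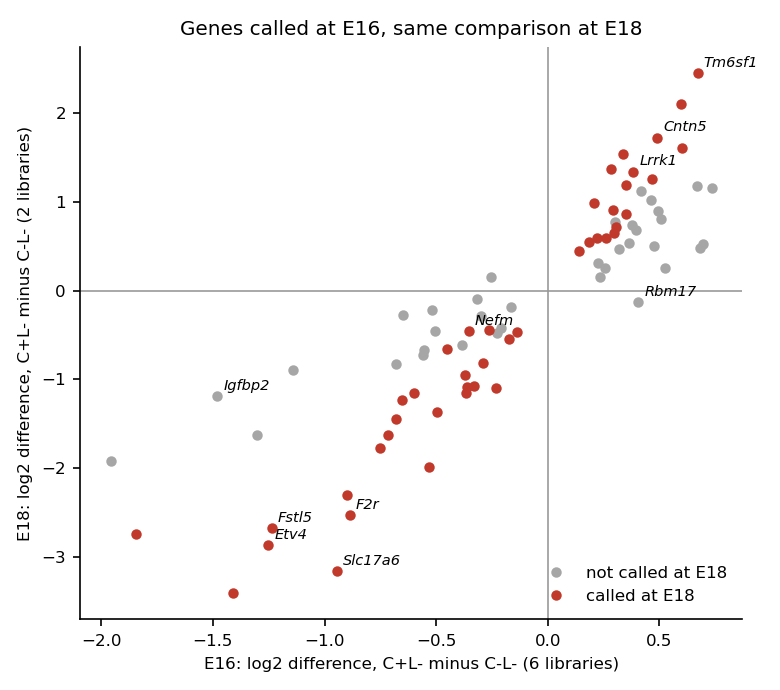
Log2 difference between Calb2-positive Lypd1-negative and double-negative cells at E16 (x axis, 6 libraries) and at E18 (y axis, 2 libraries) for 79 of the 81 genes called at E16 and tested at E18, with genes called at E18 in red. Cacna1d and Ppl are not drawn because 1 class had 0 UMIs in both E18 libraries, and Rbm17 is 1 of 2 genes on opposite sides of 0.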

How the data were processed

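Single-cell RNA-seq (10x 3-prime v3.1) was processed with Cell Ranger 3.0.1 and Seurat 3.2 on mm10, per the submitters' processing notes. The deposited tables hold UMI counts for 17999 genes and, for 26655 genes, values that the authors scaled to 10000 UMIs per cell and took the natural log of after adding 1. Inverting that scaling returned whole counts for the other 8656 genes (0 values further than 0.001 from a whole number), which carry 28.2% of the UMIs. Filters on cells and any removal of doublets are not given in the sources used here, and no doublet caller was run. A cell's library was read from the last number of its name, which equals the number that the labels give each sample.

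UMIs were summed per library and class (at least 10 cells each) and tested with edgeR 4.0.16 (TMM, filterByExpr, quasi-likelihood, library as a term for paired classes, Benjamini-Hochberg over all genes, 0.05). DESeq2 1.42.0, other filters, depths, thresholds and left-out libraries were alternatives. Named genes were the 15 (or 10, in the comparisons with Lypd1-only cells and of base with apex) with the largest difference in each direction among those called, at 20 CPM or more in the higher class and with one sign in each library (for base against apex, no overlap). Mitochondrial, ribosomal, haemoglobin and sex-linked genes and unnamed models were left out, and subtype markers and up to 4 members of each list were added. Some genes that met these rules are not reported here. The members and lists were chosen with earlier results of these data known. Same-numbered apex and base libraries share a litter, per the labels' protocols, and their deviations correlated at 0.16, 0.10 and 0.24 across 7568 genes. Replicates are separate litters. For paired classes the library term takes up spread between libraries, so p-values measure how the class difference varies across libraries. At E18, with 2 libraries, they hardly can, and rest mostly on variance shared across genes. Libraries entered those fits as independent, although apex and base of the same number share a litter. For base against apex, p-values measure spread between libraries within each portion. The edgeR script was tested on simulated data. Counts were taken without correction for free RNA. Exons overlap another gene on the opposite strand for Cntn5, Necab1, Kctd12, Cacna1d, Lypd1 and Runx1, among others, and how strand was used in counting is not given in the sources used here.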

Additional observations from a re-analysis of the deposited data

Results flagged for a closer look

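In 5 of the 30 named genes 1 library's difference between Calb2-positive Lypd1-negative and double-negative cells lay far from the other 5, judged by the gap to its nearest neighbour against the whole range. Chance alone marks about 1 in 20 such groups of 6. Apex replicate 1, which holds 17 of the selected cells and 88487 of their UMIs, gave 3 of the 5: Sncb at 1.14 (others 0.23 to 0.49), Mb21d2 at 1.07 (others 0.17 to 0.49) and Etv4 at -6.14 (others -2.10 to -0.16). The Etv4 value comes from 0 UMIs in the selected cells of that library, where 3 UMIs would be 33.9 CPM, against 51 UMIs in its double-negative cells. Calb1 stood at -1.84 in base replicate 2 (others -0.99 to -0.68) and Crtac1 at -2.25 in base replicate 3 (others -0.87 to -0.40).

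In 4 genes given here the difference between the classes was not the same in base and apex, by a test of the interaction (log2, base minus apex). The values were 1.06 for Pvalb, 0.81 for Vim, -0.60 for Lgals1 and -0.37 for Snhg11. For Pvalb the 3 apical and the 3 basal libraries lay on opposite sides of 0.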

How the results depend on the processing

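Counts of called genes are given first, against 91 (selected against double-negative cells), 835 (against Lypd1-only cells), 20 (base against apex), 5 (interaction) and 133 (E18). For the 91, DESeq2 gave 25, cells of at least 5000 UMIs 56, cells thinned to 3000 UMIs 21, depth-matched cells 47, the replicate block with apex and base summed 258, no replicate block 0, and leaving out cells with an Etv4 or Pou4f1 UMI (chosen after seeing the data) 32. Leaving out 1 library gave 50 to 95, and leaving out both libraries of replicate 1, 2 or 3 gave 68, 65 and 17. The other settings (no filter 90, RLE factors 94, Calb2 of at least 2 UMIs 78) moved the count less, and in each setting the retested genes of the 91 kept their sign. The refits share cells with the fit that picked the 91, so the agreement in sign is no independent check. For the 835, DESeq2 gave 464 and leaving out 1 library 634 to 796. For the 20, the replicate block gave 107, DESeq2 12, no filter 54, and leaving out 1 library 1 to 15. For the 5, DESeq2 gave 0 and leaving out 1 library 1 to 5. For the 133, DESeq2 gave 20, and taking the 5 libraries of E18 and P1 with at least 3 cells per class (chosen after seeing the data) 244. E18 has 2 usable libraries, so leaving out 1 of them was not run, and E18 alone is the fit reported. The cause of these moves was not tested.

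Of 1985 values of named and listed genes in the first comparison over its settings, 1659 stayed on the same side of the threshold, 291 lost and 35 gained a call. Of these values 55 took the other sign, each of them called in neither fit. The base minus apex share stayed between 18 and 27.0 points without any 1 library, and the depth difference between 0.04 and 0.07. Depth limits the low genes most: in apex replicate 1, 3 UMIs of the selected cells equal 33.9 CPM, and base replicate 2 has a median of 2917 UMIs per selected cell.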

Other observations

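The genes that separated Calb2-positive, Lypd1-negative from double-negative cells at E16 were looked up in all neurons of E18 against E14, 3 libraries each, a comparison added after the data were seen. Of the 41 genes higher in the selected cells, 30 were higher at E18 and 1 was lower (edgeR, adjusted p below 0.05), with a median log2 difference of 1.85. Of the 50 lower genes, 2 were higher and 34 lower at E18, with a median of -1.18. Over all 11256 genes tested, 2115 were higher and 1804 lower, with a median of -0.02. The enzyme used to dissociate the tissue changed between these ages, trypsin at E14 and papain at E18, and cannot be told apart from age.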
